A study of Mus musculus with 6 samples.

Results

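The immunity-related GTPases (IRG proteins) are a family of interferon-induced GTPases that protect mouse cells against bacteria and parasites living inside membrane-bound vacuoles. The genes described here are the 8 listed family members Irgm1, Irgm2, Igtp, Iigp1, Tgtp1, Tgtp2, Ifi47 and Gm4951, chosen by name among the 24411 genes in the count tables. All 8 were listed for every library, though not all had counts in each. Their RNA was measured in primary microglia (PM), the resident macrophages of the brain, taken from ICR mice and treated in culture for 4 h with GSK-J4 alone or with LPS and GSK-J4.

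GSK-J4 is a cell-permeable inhibitor of the jumonji demethylases that remove methyl groups from lysine 27 of histone H3, and LPS is the bacterial ligand of TLR4. PM were shaken off mixed glial cultures grown from brains of 12 mice, taken at postnatal day 3 and pooled. The GSK-J4 group held 3 libraries (10 μM), and the LPS + GSK-J4 group held 3 libraries (LPS at 10 ng/ml, GSK-J4 at 10 μM). Every library therefore came from cells exposed to GSK-J4, and each difference below is one between cells with and without LPS in its presence. The replicates were described as independent RNA samples, but the brains were pooled, so the p values measure only the spread between these samples. That spread was uneven. With libraries of a group compared in pairs, chi-square over its degrees of freedom was 2.12 for GSK-J4 replicates 1 and 2. Replicate 3 of GSK-J4 gave 12.2 against replicate 1 and 12.5 against replicate 2. The same pairs of LPS + GSK-J4 gave 2.32, 5.81 and 5.88. Replicate 3 thus stood apart in both groups on these raw counts, which included the ribosomal RNA precursor Rn45s. Rn45s took 22.2, 22.3 and 32.4% of the counts in GSK-J4 replicates 1 to 3. Its share was 48.1, 45.8 and 47.5% in LPS + GSK-J4 replicates 1 to 3. The part of Rn45s in the chi-square values was not tested, nor was the reason why replicate 3 stood apart.

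In mice the family is divided by one residue of the nucleotide-binding loop. The regulatory GMS proteins (Irgm1, Irgm2 and Igtp, also called Irgm3) carry a methionine there, sit on the membranes of the cell and keep the other IRG proteins inactive. The GKS proteins (Iigp1, also called Irga6; Tgtp1 and Tgtp2, also called Irgb6; and Ifi47, also called Irgd) carry the usual lysine and gather on the vacuoles of Toxoplasma gondii and Chlamydia, which then break open. Interferon-γ acts on such genes through GAS elements, bound by STAT dimers, and type I interferons act through ISRE elements, bound by STAT-IRF9 complexes and IRF proteins.

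LPS + GSK-J4 libraries held more RNA of the family than GSK-J4 libraries. The summed level of the 8 members was 26.9, 32.3 and 23.8 CPM (the counts of a gene scaled to the size of its library, after TMM factors) in the 3 GSK-J4 libraries and 115.5, 102.3 and 173.9 CPM in the 3 LPS + GSK-J4 libraries. Irgm1, Irgm2, Igtp and Ifi47 were up-regulated, and the other 4 members had too few counts to enter the test. These were Iigp1, Tgtp1, Tgtp2 and Gm4951, with between 16 and 18 counts each in the LPS + GSK-J4 group and between 0 and 7 in the GSK-J4 group. In these bulk samples, a change in the number of cells that express a gene and a change in RNA per cell cannot be told apart.

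Of the members, 6 lie on chromosome 11 in the GENCODE vM21 annotation of mm10. Irgm1 (48861968 to 48871683, minus strand), Tgtp1 (48985327 to 48994172, minus strand), Tgtp2 (49057194 to 49064206, minus strand) and Ifi47 (49076587 to 49096974, plus strand) make up one cluster. Igtp (58199556 to 58207591, plus strand) and Irgm2 (58199618 to 58222782, plus strand) make up another. RefSeq promoter windows (GRCm38.p6, 250 bases before to 50 after the transcription start) were found for the 6 members on chromosome 11.

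The bases just before the start are shown for these 6 members because the interferon elements named above would lie there. Each line gives the 100 bases that end at the base before the RefSeq start, from 5′ to 3′ on the strand of the gene. Capitals mark letter matches to the GAS motif (TTCNNNGAA) and the ISRE motif (GAAA, any 2 bases, then GAAA).
Irgm1, chr11:48871421-48871520, minus strand: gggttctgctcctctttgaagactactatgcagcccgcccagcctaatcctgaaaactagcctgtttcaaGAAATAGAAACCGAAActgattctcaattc
Irgm2, chr11:58214877-58214976, plus strand: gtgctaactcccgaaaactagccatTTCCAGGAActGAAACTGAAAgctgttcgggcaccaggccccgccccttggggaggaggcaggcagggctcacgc
Igtp, chr11:58199456-58199555, plus strand: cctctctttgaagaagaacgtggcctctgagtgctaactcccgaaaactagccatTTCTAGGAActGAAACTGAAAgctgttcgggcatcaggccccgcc
Tgtp1, chr11:48992247-48992346, minus strand: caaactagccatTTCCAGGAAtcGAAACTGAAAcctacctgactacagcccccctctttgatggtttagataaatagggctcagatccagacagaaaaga
Tgtp2, chr11:49064213-49064312, minus strand: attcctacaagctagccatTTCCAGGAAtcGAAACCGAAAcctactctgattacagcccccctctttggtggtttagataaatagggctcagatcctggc
Ifi47, chr11:49076487-49076586, plus strand: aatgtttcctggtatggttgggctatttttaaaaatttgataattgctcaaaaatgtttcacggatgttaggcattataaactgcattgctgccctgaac

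The first GAS letter stood 11 bases before the first ISRE letter in Irgm2, Igtp, Tgtp1 and Tgtp2, so that the 2 motifs together read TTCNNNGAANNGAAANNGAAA. The ISRE match began 64 bases before the start in Irgm2, 34 in Igtp, 77 in Tgtp1 and 70 in Tgtp2. Irgm1 had 2 overlapping ISRE matches, beginning 30 and 24 bases before the start, and no GAS match. No match to either motif was found in the Ifi47 window, which says only that these letters are not in this window.

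For comparison, both strands of all 32851 RefSeq promoter windows (27025 genes) were searched. ISRE letters were present in 3.44% of the windows and in 5 of the 6 member windows. GAS letters, which read the same on both strands, were present in 8.30% of the windows and in 4 of the 6. The kappaB consensus, the site of NF-κB, was present in 8.46% of the windows and in 0 of the 6. The joined motif, whose spacing was chosen after the matches in the members had been seen, was found in 5 windows (0.0152%). These belonged to Irgm2, Igtp, Tgtp1, Tgtp2 and Gm12185, another IRG gene. The printed bases of Irgm2 and Igtp share a long, nearly identical stretch, as do those of Tgtp1 and Tgtp2. The member windows are therefore not independent of each other. A letter match is a description of the sequence and does not show that a factor was bound.

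In GENCODE vM21 the printed bases of Igtp, Ifi47 and Tgtp2 lie just outside the gene itself, while those of Irgm2 lie between its exons. The printed Irgm1 bases lie in an exon of a longer noncoding transcript of Irgm1, and the last Tgtp1 bases reach an exon of Tgtp1. The printed bases of Tgtp1, Tgtp2 and Ifi47 also lie within the long annotated span of Olfr56, an olfactory receptor gene.

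**Figure D1:**
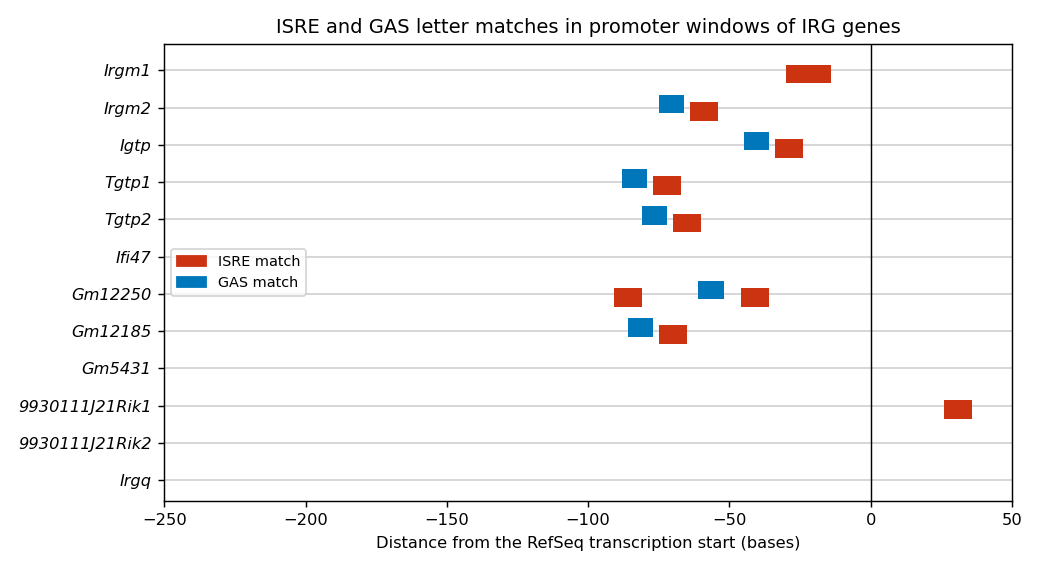
Positions of ISRE and GAS letter matches (boxes) relative to the RefSeq transcription start (0, in bases) in the promoter windows of 6 members and 6 further IRG genes. A GAS box stands just before the ISRE box in Irgm2, Igtp, Tgtp1, Tgtp2 and Gm12185, Irgm1 has overlapping ISRE boxes alone, and Ifi47 has none.

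The libraries held between 2597505 and 3472716 counts on genes, so that 3 counts in a library were worth 0.673 to 1.24 CPM. The labelled cell type was checked by 13 microglial markers, whose sum was 4360 to 4564 CPM with GSK-J4 and 3619 to 3767 CPM with LPS + GSK-J4. Fibroblast markers were uneven, with sums of 262, 71.8 and 86.9 CPM in GSK-J4 replicates 1 to 3 and 132, 229 and 393 CPM in LPS + GSK-J4 replicates 1 to 3. The ribosomal RNA precursor Rn45s took 22.2 to 32.4% of the counts in GSK-J4 libraries and 45.8 to 48.1% in LPS + GSK-J4 libraries.

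Genes with a log2 fold change of 1.5 or more in either direction and an adjusted p no higher than 0.01 were called up-regulated or down-regulated, by edgeR's quasi-likelihood test with Benjamini-Hochberg adjustment over 10133 genes. Of these genes, 299 (2.95%) were up-regulated and 82 (0.809%) were down-regulated, 3.76% in all. Among the 8 members, 4 were tested, 4 were up-regulated and 0 were down-regulated (with 0 lower when p values under 0.05 were left unadjusted, in edgeR and in DESeq2 alike). Every LPS + GSK-J4 library was above every GSK-J4 library in the 4 tested members, and in 19.8% of the genes tested. This also held for Iigp1 and Gm4951, which had few counts and were not tested, and so for 6 of the 8 members. Their median log2 fold change was 2.28 (1.85 to 3.02), beside -0.00064 over all genes tested. The filter on low counts was met by Irgm1 and Igtp in 3 of 3 GSK-J4 libraries, by Irgm2 in 2 and by Ifi47 in 0. Ifi47 and Irgm2 thus entered the test through their LPS + GSK-J4 libraries. The counts over the 4 tested members and their median are therefore descriptions only.

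Irgm1, a GMS protein needed for resistance to mycobacteria and tied to autophagy and mitochondrial quality, had the highest level of the 8 members in every library, also per kilobase of exon. Its counts were 75, 102 and 43 in GSK-J4 and 204, 176 and 211 in LPS + GSK-J4, or 17.7, 22.9 and 15.8 CPM against 79.6, 67.2 and 87.1 CPM. The lowest LPS + GSK-J4 library stood well above the highest GSK-J4 library, and the 3 libraries of each group lay close together. The mean rose from 18.8 ± 3.69 to 78.0 ± 10.1 CPM (SD, n = 3 each), a log2 fold change of 2.03 (SE 0.17, adjusted p = 3.63e-07, edgeR). It was also the member least dependent on depth, since 220 counts stood behind the GSK-J4 mean.

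Irgm2, a second GMS protein of the Golgi membranes, rose more steeply but less evenly. The counts were 13, 10 and 9 in GSK-J4 and 34, 24 and 66 in LPS + GSK-J4, which gave 3.07, 2.24 and 3.30 CPM against 13.3, 9.16 and 27.3 CPM. The groups did not overlap, yet LPS + GSK-J4 replicate 3 held more than the other 2 libraries of its group together. The mean rose from 2.87 ± 0.554 to 16.6 ± 9.49 CPM (log2 fold change 2.53, SE 0.40, adjusted p = 0.000225, edgeR). Without LPS + GSK-J4 replicate 3, the log2 fold change of Irgm2 was 1.98 (adjusted p = 0.000114).

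Igtp, the GMS protein of the endoplasmic reticulum that is required for resistance to Toxoplasma gondii, had 16, 21 and 9 counts in GSK-J4 and 28, 34 and 48 counts in LPS + GSK-J4. Its levels were 3.77, 4.71 and 3.30 CPM against 10.9, 13.0 and 19.8 CPM. Again the groups were apart, and replicate 3 was the highest of the LPS + GSK-J4 libraries. The mean rose from 3.93 ± 0.720 to 14.6 ± 4.66 CPM (log2 fold change 1.85, SE 0.31, adjusted p = 0.000335, edgeR), the smallest change of the 4 members tested. Igtp and Irgm2 share 162 exon bases on the same strand, and 5.06% of the 101-base windows of Igtp transcripts and 2.95% of those of Irgm2 also occur in another gene, so most bases of each are found in that gene alone.

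Ifi47, a GKS protein with a less defined role at vacuoles, showed the largest fitted change of the tested members. It had 7, 7 and 3 counts in GSK-J4 and 22, 24 and 47 in LPS + GSK-J4, or 1.65, 1.57 and 1.10 CPM against 8.59, 9.16 and 19.4 CPM. All GSK-J4 libraries were near the level of 3 counts, and LPS + GSK-J4 replicate 3 was again far above the other 2. The mean rose from 1.44 ± 0.298 to 12.4 ± 6.09 CPM (log2 fold change 3.02, SE 0.42, adjusted p = 6.30e-05, edgeR). Ifi47 shares 111 exon bases with Olfr56 on its own strand and 106 with Gm12188 on the other, and the counts were taken by strand.

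The 4 remaining members were at or near the limit of detection. Iigp1, a GKS protein that loads onto the Toxoplasma vacuole and is encoded on chromosome 18, had 0 counts in all 3 GSK-J4 libraries and 2, 2 and 14 counts in LPS + GSK-J4 (0.781, 0.763 and 5.78 CPM). Every LPS + GSK-J4 library was above every GSK-J4 library, but 77.8% of the 18 counts came from replicate 3. With 3 counts taken as the GSK-J4 total, the pooled level of Iigp1 was 9.01-fold higher in LPS + GSK-J4. That value leaves out the counting error of the 18 counts.

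Tgtp1 and Tgtp2 encode nearly identical T-cell-specific GTPases that are among the first proteins loaded onto the Toxoplasma vacuole. Tgtp1 had 0, 0 and 1 counts in GSK-J4 and 0, 1 and 16 counts in LPS + GSK-J4, the last being 6.61 CPM. Its pooled ratio was 25.5 (95% exact interval 4.00 to 1067), with 94.1% of the LPS + GSK-J4 counts in replicate 3. Replicate 1 of LPS + GSK-J4 was at 0, so the groups of Tgtp1 overlapped.

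Tgtp2 had 0 counts in the 3 GSK-J4 libraries and 0, 4 and 12 counts in LPS + GSK-J4 (0, 1.53 and 4.96 CPM). With 3 counts again taken as the GSK-J4 total, its pooled level was 8.01-fold higher in LPS + GSK-J4. Replicate 3 held 75.0% of the counts. Of the 101-base windows in their transcripts, 70.1% of those of Tgtp1 occur in Tgtp2 and 76.6% of those of Tgtp2 occur in Tgtp1. Only uniquely placed fragments were counted, so the counts of Tgtp1 and Tgtp2 are uncertain and come from fragments that cover a difference between them. Fragments were read from both ends, while a window has the length of a single read, and the share of fragments lost was not measured. Tgtp1 also shares 223 exon bases with Gm12185 on the same strand.

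Gm4951, a predicted IRG gene that lies in the same cluster as Iigp1, had the lowest pooled ratio of the members. It had 3, 4 and 0 counts in GSK-J4 and 6, 3 and 7 in LPS + GSK-J4, or 0.708, 0.898 and 0 CPM against 2.34, 1.14 and 2.89 CPM. The groups of Gm4951 were apart in CPM but not in counts, and every library was within a few counts of the limit. The ratio was 3.43 (95% exact interval 1.34 to 9.87). The intervals cover counting error only, and the fold values of Iigp1 and Tgtp2 leave out the error of their LPS + GSK-J4 counts.

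Without any filter on low counts, 7 members were called up-regulated, all but Gm4951. The log2 fold changes then were 5.91 for Iigp1 (adjusted p = 6.54e-05), 4.12 for Tgtp1 (adjusted p = 0.00116) and 5.74 for Tgtp2 (adjusted p = 0.000229), all by edgeR, and 1.69 for Gm4951 (adjusted p = 0.119). When LPS + GSK-J4 replicate 3 was left out as well, an alternative chosen after the counts had been seen, the calls of Iigp1, Tgtp1 and Tgtp2 were lost. The log2 fold change was still 4.39 for Iigp1 and 4.39 for Tgtp2 (adjusted p = 0.129 for each), whereas it was 0.83 for Tgtp1 (adjusted p = 0.826) and 1.42 for Gm4951 (adjusted p = 0.320). Irgm1, Irgm2, Igtp and Ifi47 were up-regulated in that fit too.

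**Figure D2:**
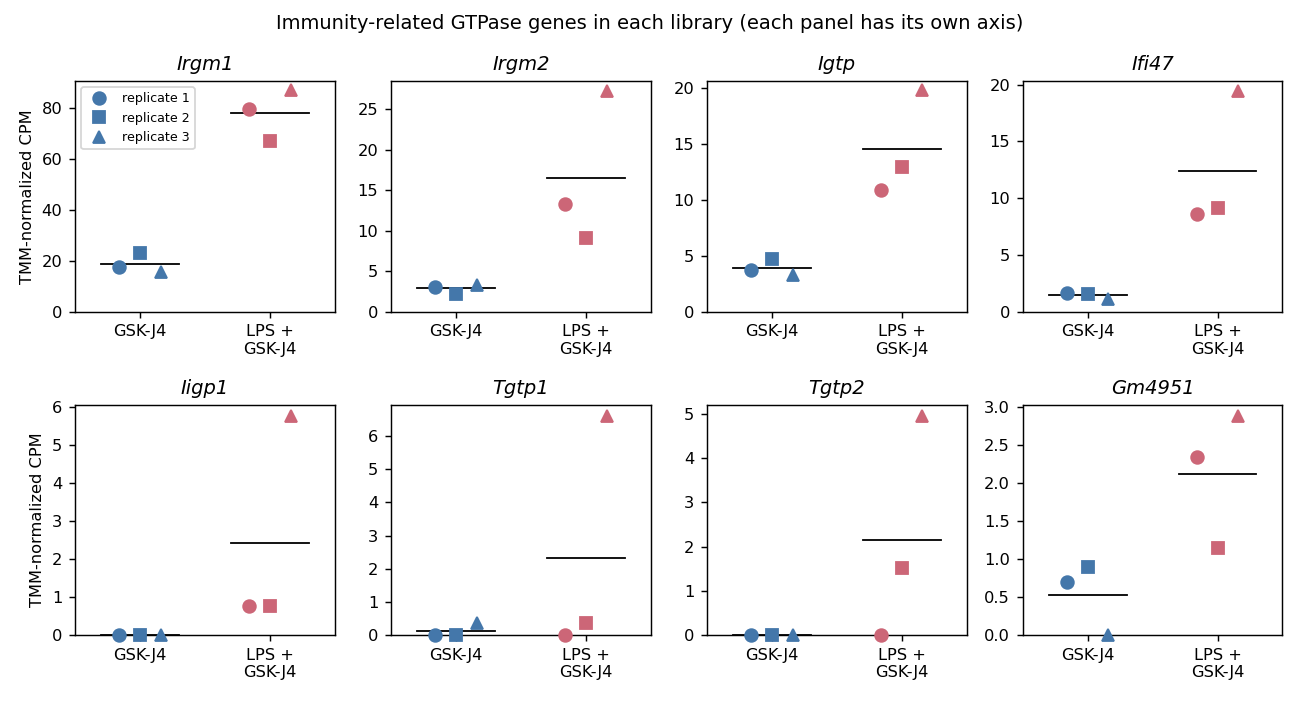
TMM-normalized CPM (vertical axis, a separate scale for each panel) of the 8 members in the 3 GSK-J4 libraries (blue) and the 3 LPS + GSK-J4 libraries (red), with the mean as a line and the replicate number as the marker shape. Groups are apart in 6 of the 8 panels, all but Tgtp1 and Tgtp2, and the LPS + GSK-J4 triangle (replicate 3) is the highest point of every panel.

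Levels were set against each other per kilobase of exon. In GSK-J4 the order was Irgm1 (3.23 ± 0.635 CPM per kb), Igtp (1.94 ± 0.356), Irgm2 (0.778 ± 0.150) and Ifi47 (0.583 ± 0.121), with Gm4951 at 0.202 ± 0.179 and Iigp1, Tgtp1 and Tgtp2 at or under 0.0381. Irgm2 and Ifi47 overlapped in range, whereas Irgm1 and Igtp did not. In LPS + GSK-J4 the order was Irgm1 (13.4 ± 1.74 CPM per kb), Igtp (7.21 ± 2.30), Ifi47 (5.01 ± 2.46) and Irgm2 (4.49 ± 2.57). The ranges of Igtp, Ifi47 and Irgm2 overlapped, while the lowest library of Irgm1, at 11.6, stood above the highest of Igtp, at 9.80. Gm4951 (0.804), Tgtp2 (0.735), Tgtp1 (0.727) and Iigp1 (0.419) followed, and their ranges overlapped one another.

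Among the LPS + GSK-J4 libraries, replicate 3 was the highest in 8 of 8 members, tested or not. It was the highest in 42.3% of all genes tested. Its level divided by the mean of replicates 1 and 2 was 1.19 for Irgm1, 1.66 for Igtp, 2.19 for Ifi47 and 2.43 for Irgm2. Of the members with few counts, the ratio was 7.49 for Iigp1, 34.6 for Tgtp1 and 6.49 for Tgtp2, but 1.66 for Gm4951. The median ratio was 1.02 over all genes tested, 1.01 over 15 interferon signalling genes, 0.894 over 7 Gbp genes and 2.22 over 5 fibroblast markers. Fibroblast markers were thus also highest in replicate 3 of LPS + GSK-J4, and their part in the levels of the members was not tested.

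Leaving out LPS + GSK-J4 replicate 3 kept Irgm1 (log2 fold change 1.94, adjusted p = 9.58e-10), Igtp (1.57, adjusted p = 0.000492) and Ifi47 (2.55, adjusted p = 3.19e-05) up-regulated by edgeR, as given above for Irgm2. In the members without a test, the LPS + GSK-J4 totals went from 18 to 4 counts for Iigp1, from 17 to 1 for Tgtp1, from 16 to 4 for Tgtp2 and from 16 to 9 for Gm4951.

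Of 15 further IRG genes looked for by name, 8 were in the count tables, 3 of them were tested and 0 were called. Over all genes tested, 3.76% were called. By edgeR, 0 of the 3 were lower when p values under 0.05 were left unadjusted. Irgq, a distant family member that binds autophagy proteins, was at 42.8 ± 5.60 CPM with GSK-J4 and 52.2 ± 11.7 CPM with LPS + GSK-J4 (log2 fold change 0.29, adjusted p = 0.256). Gm5431 (0.20, adjusted p = 0.654) and 9930111J21Rik1 (-0.17, adjusted p = 0.750), which lie in the Irgm1 cluster, had overlapping groups. Per kilobase of exon, Gm5431 was at 2.25 CPM and 9930111J21Rik1 at 1.29 CPM in GSK-J4, beside 1.94 for Igtp.

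Gm12250, the gene of the vacuole-disrupting Irgb10, annotated in GENCODE as a processed pseudogene upstream of Igtp, was named after its counts had been seen. It had 0, 0 and 1 counts in GSK-J4 and 2, 9 and 5 in LPS + GSK-J4, a pooled ratio of 24.0 (95% exact interval 3.73 to 1008). Its RefSeq window held a GAS match 61 bases before the start and ISRE matches 91 and 46 bases before it. Replicate 3 held 31.2% of its LPS + GSK-J4 counts, unlike the 75.0% or more in Iigp1, Tgtp1 and Tgtp2. The difference between these genes was not tested.

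Genes around the family were looked at for comparison. Within 100 kb of a member, 17 genes on neither family list were in the count tables, 7 were tested and 0 were called, where 3.76% of all genes tested were called. With so few genes the count shows no contrast with the family. Their median log2 fold change was 0.09. They ranged from -0.57 for Cnot8, a subunit of the CCR4-NOT deadenylase (adjusted p = 0.0149), to 0.77 for Smim3, a small membrane protein (adjusted p = 0.00551, under the threshold of fold).

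IRG genes are switched on by interferons, so the ligands were looked at next. Of 20 interferon genes, 12 had no count in any library and only Ifnb1, the type I interferon that macrophages make first after TLR4 stimulation, was tested. Ifnb1 had 1, 0 and 0 counts in GSK-J4 and 250, 234 and 189 in LPS + GSK-J4, and its level of 88.3 ± 9.80 CPM against 0.0786 passed the test (adjusted p = 1.69e-11, edgeR). Ifnb1 entered the test through its LPS + GSK-J4 libraries, so the call is a description only. Replicate 3, with the highest levels of every member, had the lowest Ifnb1 of its group (78.0 CPM against 97.6 and 89.3). Ifng, which encodes interferon-γ, had 0 counts in all 6 libraries, which allows up to 0.263 CPM in the GSK-J4 group and 0.395 CPM in the LPS + GSK-J4 group. The T and NK cell markers, for cells that make interferon-γ, summed to at most 0.390 CPM in any library. The part of the interferons in the levels of the members was not tested.

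All 15 receptor and signalling genes of the interferon list were tested, of which 4 were up-regulated and 0 down-regulated (median log2 fold change 0.45, -0.32 to 3.27). Of all genes tested, 2.95% were up-regulated and 0.809% were down-regulated. Irf1, a transcription factor that binds ISRE-like sites and is itself a target of GAS, went from 46.2 ± 8.37 to 450.7 ± 21.2 CPM (log2 fold change 3.27, adjusted p = 7.11e-11). The other 3 were brakes on the pathway. Socs3 and Socs1, which block JAK kinases, rose by 2.98 and 2.55 on the log2 scale, and Usp18, which removes ISG15 and blocks the type I receptor, by 1.54. Usp18 was close to the threshold of fold and was no longer called without GSK-J4 replicate 3 (1.43), without LPS + GSK-J4 replicate 3 (1.26), with the replicate block (1.49) or without the filter on low counts (1.49). Irf7 was called as well without LPS + GSK-J4 replicate 1. Irf7, the amplifier of type I interferon (1.37, adjusted p = 0.000225), and Jak2, a kinase of the interferon-γ receptor (0.80, adjusted p = 0.000605), were below the threshold of fold.

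Guanylate-binding proteins are the larger interferon-induced GTPases that act beside IRG proteins on the same vacuoles. Of 11 Gbp genes in the count tables, 7 were tested and 6 were up-regulated, beside 2.95% of all genes tested. The median log2 fold change of the 7 was 3.25. The 6 were Gbp5 (7.37), Gbp3 (4.61), Gbp2 (3.31), Gbp7 (3.25), Gbp10 (2.15) and Gbp6 (2.08), while Gbp9 was at -0.03 (adjusted p = 0.942). With at least 10 counts in every sample, 0 Gbp genes were called, so the count of 6 is a description only. The summed Gbp level was 36.8, 31.0 and 19.4 CPM with GSK-J4 and 336.0, 335.0 and 326.6 CPM with LPS + GSK-J4. It was even across the LPS + GSK-J4 libraries, where the sum of the IRG members ranged from 102.3 to 173.9 CPM. The difference in fold change between the families was not tested.

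**Figure D3:**
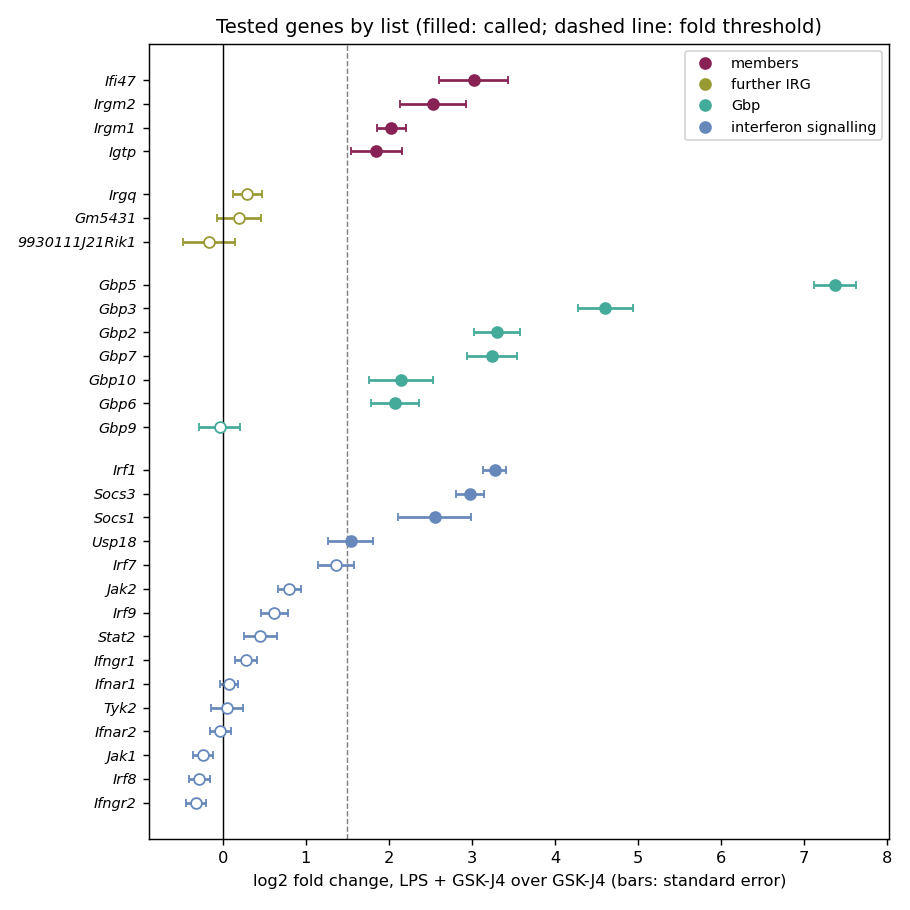
Log2 fold change of LPS + GSK-J4 over GSK-J4 (horizontal axis, bars give the standard error) of each tested gene of the IRG members, the further IRG genes, the Gbp genes and the interferon signalling list. Filled points were called, and the dashed line marks the fold threshold of 1.5. The 4 IRG members lie between 1.85 (Igtp) and 3.02 (Ifi47), the 6 called Gbp genes between 2.08 (Gbp6) and 7.37 (Gbp5), and the further IRG genes lie near 0.

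IRG and Gbp proteins are guided to vacuoles by the conjugation machinery of autophagy (Atg3, Atg5, Atg7, Atg12, Atg16l1 and the LC3 and GABARAP proteins), and vacuoles that they coat attract ubiquitin ligases and Sqstm1. All 15 genes of that list were tested and 0 were called, where 3.76% of all genes tested were called, so the count shows no contrast. The median log2 fold change was -0.33, with 11 genes lower and 4 higher. Every LPS + GSK-J4 library was below every GSK-J4 library in 9 genes and above in 2. The summed level was higher with LPS + GSK-J4, at 3004 to 3278 CPM against 2268 to 2405 CPM. The farthest from 0 were Trim21, a ubiquitin ligase and antibody receptor (1.34, adjusted p = 0.0141), and Atg12, the ubiquitin-like protein joined to Atg5 (-1.22, adjusted p = 7.65e-06). Atg12 was at 143, 148 and 134 CPM with GSK-J4 and at 61.3, 69.8 and 51.6 CPM with LPS + GSK-J4, so the groups were apart although the fold stayed below the threshold.

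Markers of microglia and of other cells that the cultures could hold were compared between the groups. Of 13 microglial markers, 0 were called (median log2 fold change -0.31), where 3.76% of all genes tested were called. Of 8 astrocyte markers tested, 2 were up-regulated, Gfap (1.70) and Sox9 (1.53), and the summed level was 60.2 to 63.4 CPM with GSK-J4 and 143.6 to 175.1 CPM with LPS + GSK-J4. Oligodendrocyte lineage markers, with 0 of 7 called, summed to 209 to 240 CPM and 380 to 427 CPM, and 0 of 5 fibroblast markers were called. Of 3 endothelial markers, Cdh5 was the only one tested and was up-regulated (12.3 to 35.2 CPM in the mean), Pecam1 had between 2 and 6 counts in each library, and Cldn5 was at 0 in all. The neuronal list, with 0 of 1 tested genes called, summed to 6.06 to 7.08 and 14.1 to 16.4 CPM. The part of these cells in the change of the IRG genes was not tested.

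**Figure D4:**
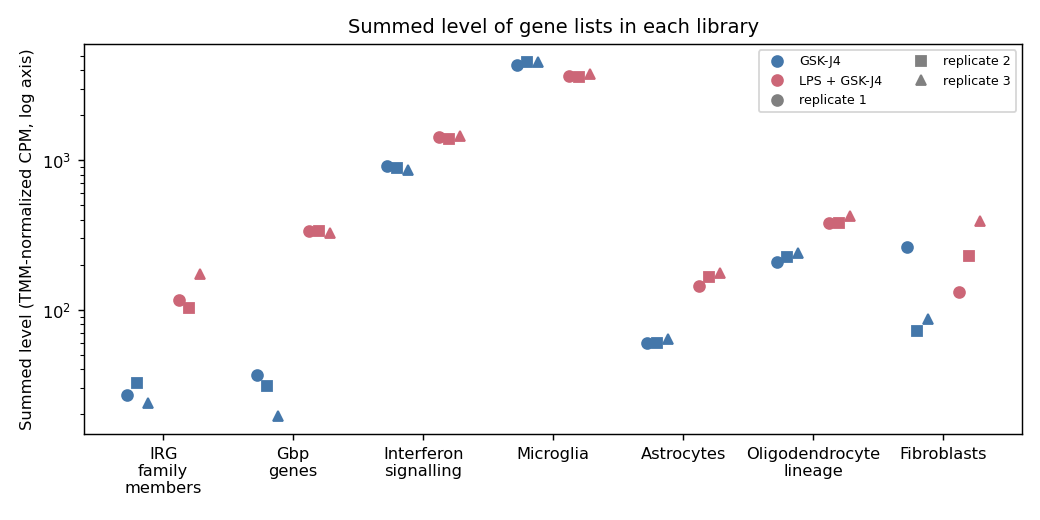
Summed TMM-normalized CPM (vertical log axis) of the IRG members and of 6 other gene lists in each library, by group (color) and replicate (marker shape). The IRG sum is 23.8 to 32.3 CPM with GSK-J4 and 102.3 to 173.9 CPM with LPS + GSK-J4, replicate 3 being highest, while the Gbp sum is level across the LPS + GSK-J4 libraries and the fibroblast sum ranges from 132 to 393 CPM in them.

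Across the 6 libraries, the genes outside the family whose log2 CPM followed the mean profile of the 4 tested members most closely were Cdv3 (Pearson r = 0.9996), Neo1 (0.9995), Ccl22 (0.998), Lrrc8c (0.997) and Ptprf (0.997). Ccl22, a chemokine that attracts regulatory T cells, was up-regulated (log2 fold change 2.64, adjusted p = 0.000687), with 4.68, 4.58 and 9.50 CPM in LPS + GSK-J4. Ptprf, a receptor tyrosine phosphatase, was up-regulated too (1.85, adjusted p = 0.000585). Cdv3, Neo1 and Lrrc8c changed less (0.56, 0.65 and 1.05) and were not called. These correlations describe 6 points that share the group difference and the high replicate 3.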

How the data were processed

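PM libraries were prepared with a directional kit after removal of ribosomal RNA and sequenced as 101-cycle paired ends. Per the submitters' processing notes, CASAVA 1.8.2, Trimmomatic 0.33 and STAR 2.5.1 were used with mm10. The gene annotation used by the authors is not given in the sources used here. The deposited values are raw counts per gene from STAR, without normalization, and the authors left 4 tally rows of unassigned fragments (74.0 to 78.0% of fragments) at the top, which were not used. The reverse-strand counts were used, since the other strand held 0.966 to 1.38% of the sense total.

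The titles gave the groups and the replicate numbers. The 8 members and the other lists were chosen with earlier results of these data known. Named genes are the members, every called gene of a list, its 2 uncalled genes with the largest change, tested neighbors and the 5 most alike genes, and Gm12250, 9930111J21Rik1 and the replicate 3 pattern were singled out after their values had been seen. The test was edgeR 4.0.16 (R 4.3.3, limma 3.58.1) with TMM factors, filterByExpr (minimum count 10, minimum total 15), a robust quasi-likelihood fit without covariates and Benjamini-Hochberg adjustment. Replicates varied with a common biological coefficient of 0.133, and the test was checked on simulated data. With 3 libraries against 3, an exact permutation test cannot give a p below 0.1. Alternatives included DESeq2 1.42.0, other scalings, filters and thresholds, a replicate block and leaving out each library. A limit of 3 counts over a group was used for genes at 0, and 95% intervals of pooled ratios are Clopper-Pearson intervals. Sequences are from RefSeq (GRCm38.p6), and positions from GENCODE vM21. Other steps used Python 3.11.15 (scipy 1.17.1, pandas 2.3.3, numpy 2.4.6), and matplotlib 3.10.9 drew the figures.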

Additional observations from a re-analysis of the deposited data

How the results depend on the processing

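The number of up-regulated members was 4 in the reported test and 4 to 4 on leaving out each library in turn, and the number down-regulated was 0 to 0. It was 7 without a filter on low counts, 5 with DESeq2's Wald test, which added Iigp1 (log2 fold change 5.56, adjusted p = 0.00543), and 1 with at least 10 counts in every sample, where Irgm1 was the only member left to test. Without the filter and without LPS + GSK-J4 replicate 3, chosen after seeing the data, it was 4. Unstranded counts, DESeq2 size factors, and removal of Rn45s, Mir6236 and Lars2 each gave 4, the same genes. The unadjusted p and the thresholds of 0.05 and 1 also gave 4. These were looser cuts on the reported fit, where all 4 tested members were already called, so no other number was possible. Over the alternatives other than that chosen after seeing the data, the log2 fold changes ranged from 1.93 to 2.20 for Irgm1, 1.98 to 2.82 for Irgm2, 1.57 to 2.02 for Igtp and 2.55 to 3.22 for Ifi47, with adjusted p values up to 0.00192. Among the lists, Gm12250 became 1 further IRG gene called without the filter, with or without LPS + GSK-J4 replicate 3, and at the thresholds of 0.05 and 1 the vacuole targeting list had 1 gene up and 1 down. With at least 10 counts in every sample, 0 Gbp genes and 0 interferon ligands were called, and 176 genes in all were up-regulated. At thresholds of 0.05 and 1, calls over all genes numbered 844 up and 285 down. The interferon signalling list had 3 to 5 genes up over all alternatives, and lost Socs1 with at least 10 counts in every sample. With the replicate number as a block, Usp18 was lost, 4 members were up-regulated, the same genes, and 0 down-regulated. The deviations of same-numbered libraries correlated at -0.00872, 0.124 and 0.305, so the numbers were not taken to pair the samples, and not every library correlated best with its own number. Depth limits Iigp1, Tgtp1, Tgtp2 and Gm4951, for which 3 counts in a library are 0.673 to 1.24 CPM.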
